A study of Mus musculus with 30 samples.

Results

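The 10 genes described here encode the 4 ErbB receptors (Egfr, Erbb2, Erbb3 and Erbb4) and 6 of their ligands (Areg, Ereg, Btc, Hbegf, Tgfa and Nrg1). They were chosen by name from the 33924 genes of a count table of mouse thyroid RNA, and each was followed through 10 groups of mice. All 10 passed the filter on low counts, which 19016 genes passed in all. ErbB receptors are tyrosine kinases of the cell surface that pair with each other once a ligand binds. Active pairs signal through the MAPK cascade (Ras, Raf, MEK and ERK) and through PI3K and Akt. Areg and Tgfa bind Egfr, Ereg, Btc and Hbegf bind Egfr and Erbb4, and Nrg1 binds Erbb3 and Erbb4, whereas Erbb2 has no known soluble ligand and acts as a partner of the others. In human thyroid cancer cells with mutant BRAF, signalling through HER3 (ERBB3) with neuregulin as its ligand is known to restore MAPK activity under RAF inhibitors.

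Braf(V600E), an activating mutation of the kinase Braf, was present in 8 of the groups. It stood with Smarcb1 KO, with Arid2 KO, with Arid1a KO or alone; the products of these 3 genes belong to SWI/SNF, a complex that remodels chromatin, and KO stands for knockout. Mice of these 4 genotypes were given CKI, a MEK inhibitor also called CH5126766, or vehicle. Dosing ran for 8 days, and the last dose preceded death by about 2 h. The last 2 groups were untreated thyroids with Arid1a KO without mutant Braf and untreated wild-type (WT) thyroids. Each group held 3 libraries, except both Braf Arid2 KO groups with 2, and 28 were analysed. Strain, age, sex, the promoter of the Cre or transgene and the timing of gene loss are not given in the sources used here, nor whether each library is a separate animal. The p-values therefore cover the spread among these libraries and nothing beyond it. The label texts describe flash freezing of whole thyroids for WT, Arid2 and Smarcb1 mice and, elsewhere, flow sorting of YFP+ cells from dissociated thyroids. Where the preparation differed between genotypes, it cannot be told apart from genotype; CKI and vehicle groups of 1 genotype share what the labels say.

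Libraries held 23879271 to 34400066 counts. The thyroglobulin gene Tg, which defines the labelled tissue, was found in every library, at a mean of 417 CPM in Braf vehicle thyroids against 104590 CPM in WT (CPM, counts after scaling of all libraries to 1 size). Smarcb1 lay at 2.28 to 17.9 CPM in Braf Smarcb1 KO under vehicle, against 57.0 to 131 CPM in Braf vehicle. Whole-gene counts of Arid1a and Arid2 take in reads outside a deleted part and do not check those labels. In bulk samples, fewer cells of a type and less RNA per cell cannot be told apart, and this touches every level below. Strand was not stated, so reads of genes that overlap a member (Gm19610 with Ereg, Mien1 with Erbb2, Egfros with Egfr, and 9 genes with Nrg1) may be counted with it.

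Promoter sequences are shown for 2 ligand genes that were higher in Braf thyroids than in WT (Areg and Btc), for the receptor gene that was lower there (Erbb4) and for Egfr, 1 of 3 receptor genes that were higher with CKI. Ereg, Areg and Btc are neighbours: in the RefSeq annotation of GRCm38.p6, Epgn, Ereg, Areg and Btc follow each other as protein-coding genes on chromosome 5. Each sequence holds the 250 bases before the transcription start in RefSeq GRCm38.p6, 5′ to 3′ on the gene's strand; the deposited counts were made on another build, mm9, and are not placed on these coordinates. They lie at chr5:91139349-91139598 (+) for Areg, chr5:91402995-91403244 (-) for Btc, chr11:16751953-16752202 (+) for Egfr and chr1:69108060-69108309 (-) for Erbb4. Capitals mark matches to 4 motifs searched on both strands, the CRE bound by CREB (TGACGTCA), the AP-1 site (TGANTCA), an ETS site (CCGGAA) and the TATA box (TATAAA). The ETS site is longer than the ETS core GGAA, which was not searched for by itself.
Areg: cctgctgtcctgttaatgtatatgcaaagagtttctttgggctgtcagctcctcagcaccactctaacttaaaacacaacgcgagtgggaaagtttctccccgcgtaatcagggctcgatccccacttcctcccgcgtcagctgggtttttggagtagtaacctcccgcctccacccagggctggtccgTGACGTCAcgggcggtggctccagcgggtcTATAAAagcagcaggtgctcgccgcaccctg
Btc: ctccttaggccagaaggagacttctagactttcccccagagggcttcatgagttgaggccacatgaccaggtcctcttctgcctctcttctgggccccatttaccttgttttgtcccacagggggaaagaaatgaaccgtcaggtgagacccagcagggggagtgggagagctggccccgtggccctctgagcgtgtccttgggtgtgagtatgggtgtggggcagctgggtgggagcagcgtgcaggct
Egfr: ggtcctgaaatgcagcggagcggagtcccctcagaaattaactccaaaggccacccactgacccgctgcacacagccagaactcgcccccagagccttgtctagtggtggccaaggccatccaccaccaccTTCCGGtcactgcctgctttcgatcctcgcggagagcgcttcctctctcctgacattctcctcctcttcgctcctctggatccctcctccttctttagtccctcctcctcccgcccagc
Erbb4: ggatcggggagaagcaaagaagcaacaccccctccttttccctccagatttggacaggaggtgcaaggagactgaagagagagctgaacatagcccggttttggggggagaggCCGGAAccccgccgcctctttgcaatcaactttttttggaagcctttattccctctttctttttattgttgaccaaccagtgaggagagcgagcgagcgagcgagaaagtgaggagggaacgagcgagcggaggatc
Areg held a CRE from 61 to 54 bases before its start and a TATA box from 31 to 26 bases before it. Egfr held the ETS site on the opposite strand, 119 to 114 bases before its start, and Erbb4 held it 137 to 132 bases before its start. Btc held none of the 4 motifs in this window. Of 32851 mouse promoters of the same length, 1.55% held the CRE, 6.75% the AP-1 site, 12.0% the ETS site CCGGAA and 12.4% the TATA box. The same search in Erbb2 and Tgfa, whose sequences are not shown, gave no match. Ereg, Erbb3 and Nrg1 had no entry among these promoters, and the promoter of Hbegf is not reported here. No match overlapped another motif, and a match is a description of letters, not a binding site.

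To compare levels between genes, CPM was divided by exon length (kilobases of merged exons in GENCODE vM21). On this scale Hbegf was the most abundant of the 6 ligands in all 3 WT libraries, with 91.6% to 94.9% of their summed level. In Braf vehicle libraries its share was 24.9% to 45.4%, and Ereg held 35.0% to 62.2%, against 0.264% to 0.779% in WT. With CKI the share of Ereg in Braf libraries was 8.40% to 17.7%, and that of Areg was 26.0% to 57.1%, against 7.52% to 15.1% under vehicle. In Braf Arid2 KO the share of Areg ran the other way, at 15.5% to 17.1% with CKI against 26.8% to 30.5% under vehicle. The Areg shares with CKI and vehicle overlapped in Braf Arid1a KO and in Braf Smarcb1 KO. Among receptors Erbb3 was the most abundant per kilobase in all 3 libraries of Braf vehicle, of Arid1a KO and of WT. Braf Smarcb1 KO differed in make-up: Egfr held 40.3% to 75.8% of the summed receptor level under vehicle and Erbb3 6.91% to 19.0%, against 2.86% to 9.71% and 64.9% to 77.6% in Braf vehicle. Erbb4, a receptor of neuregulins, had the lowest level per kilobase of the 4 receptors in each group, at a mean of 0.404 CPM per kilobase in WT. These shares are descriptions, with no test.

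**Figure D1:**
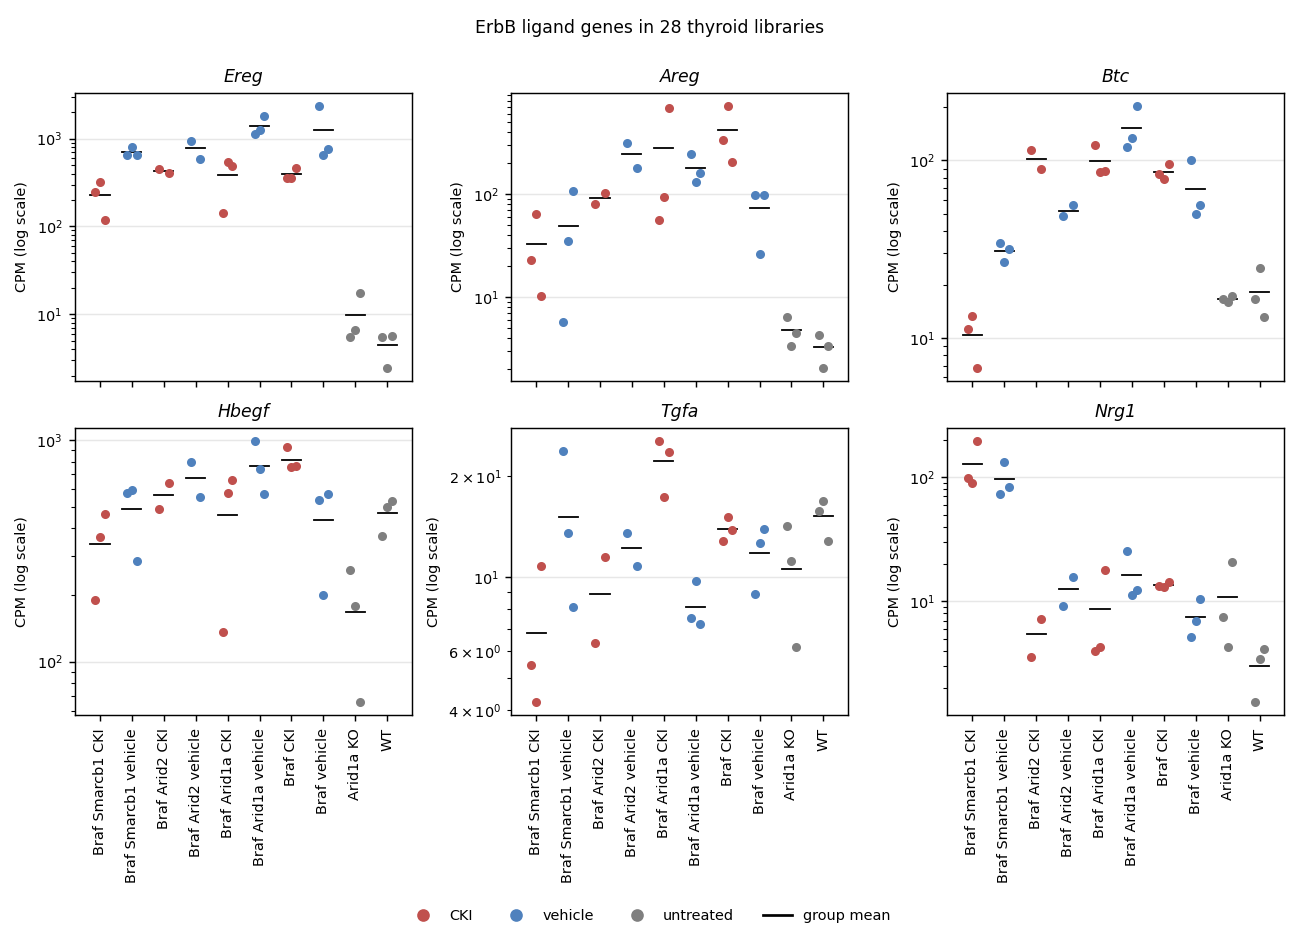
Levels of the 6 ligand genes in CPM (log scale, with a range of its own in each panel) in each of 28 libraries, by group, with the group mean as a line. Ereg lies at 119 CPM or more in each library with mutant Braf and at 17.6 CPM or less in each without it, and Nrg1 at 73.5 CPM or more in Braf Smarcb1 KO.

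Thyroids with mutant Braf under vehicle were set against untreated WT thyroids, so vehicle dosing went with the mutation. By the label texts the preparation may have differed too, and it cannot then be told apart from the mutation. The 3 ligand genes Ereg, Areg and Btc were higher and the receptor gene Erbb4 was lower, while Egfr, Erbb2, Erbb3, Nrg1, Hbegf and Tgfa did not pass the test. That is 4 of 10 genes called at an adjusted p under 0.05, where 20.0% of all genes tested were called. Ereg, which encodes epiregulin, lay at 2329, 645 and 767 CPM in Braf vehicle, against 5.48, 2.46 and 5.60 CPM in WT. The groups did not overlap, and replicate 2 was the highest Braf library. Its scaling factor (TMM) was the lowest of all libraries (0.723), which raises its CPM. In it 17667 genes were above 0, against 21072 and 20776 in Braf vehicle replicates 4 and 5. The log2 fold change of Ereg was 8.11 (SE 0.70, adjusted p = 1.31e-07), and 7.28 without replicate 2. Areg, which encodes amphiregulin, lay at 97.1, 25.8 and 97.5 CPM in Braf vehicle, against 4.29, 2.06 and 3.36 CPM in WT. Its lowest Braf library was still above every WT library (log2 fold change 4.50, SE 0.98, adjusted p = 0.00232). Btc, which encodes betacellulin, lay at 99.9, 49.7 and 56.5 CPM in Braf vehicle, against 16.5, 24.8 and 13.2 CPM in WT, again with no overlap. Its log2 fold change was 1.92 (SE 0.30, adjusted p = 0.000112).

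The levels of Erbb4 were 0, 0.145 and 0.118 CPM in Braf vehicle (0, 4 and 3 counts), against 5.48, 5.18 and 4.0005 CPM in WT. It was nearly undetected in Braf thyroids and low in WT (log2 fold change -5.66, SE 1.13, adjusted p = 0.00107). These 4 calls held under each of the 11 alternatives run, which included leaving out each of the 6 libraries. Egfr, the receptor of most of these ligands, spread widely under vehicle, at 6.06, 47.6 and 18.8 CPM in Braf and 43.3, 65.1 and 46.0 CPM in WT. The groups overlapped (log2 fold change -1.09, adjusted p = 0.170). Without Braf vehicle replicate 4, the library with 47.6 CPM, the value was -2.04 and passed (adjusted p = 0.0158). Erbb2 lay at 26.6, 28.5 and 32.4 CPM in Braf vehicle, against 18.5, 18.6 and 12.0 CPM in WT. Its groups did not overlap, and it missed the threshold (log2 fold change 0.83, adjusted p = 0.144), as did Nrg1, at 5.14, 6.94 and 10.4 CPM in Braf vehicle against 1.54, 3.42 and 4.13 CPM in WT (log2 fold change 1.31, adjusted p = 0.121). Cell type markers moved in the same comparison: 6 of 7 thyroid follicular markers, 5 of 5 endothelial, 4 of 5 C cell and 3 of 3 parathyroid markers were lower in Braf, and the fifth C cell marker, Calcb, was higher. Of the fibroblast markers 5 of 6 were higher, with 4 of 7 leukocyte and 2 of 4 general epithelial markers, and of the mast cell and basophil markers 4 of 7 were higher and 1 lower. The C cell markers, genes of the calcitonin-producing cells, summed to 34.1 to 155 CPM in Braf vehicle against 13153 to 35313 CPM in WT. The mast cell and basophil markers summed to 376 to 4303 CPM in Braf vehicle, against 26.1 to 97.96 CPM in WT. The sum was highest in the library where Ereg was highest, and nearly all of it in Braf was Mcpt8, a basophil protease gene. Other groups differed: in Braf Arid1a KO under vehicle these markers summed to 164 to 332 CPM, with Ereg at 1139 to 1795 CPM. In Arid1a KO without mutant Braf they summed to 78.1 to 151 CPM, with Ereg at 5.47 to 17.6 CPM. The part of the cell type markers in these results was not tested.

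Arid1a KO thyroids without mutant Braf were also set against WT, both untreated. Here too the preparation may have differed between the groups. Ereg, Areg and Btc did not pass there. Ereg lay at 5.47, 6.62 and 17.6 CPM in Arid1a KO, against 5.48, 2.46 and 5.60 CPM in WT (log2 fold change 1.13, adjusted p = 0.140). Against a background of 18.6% of genes called, 2 of the 10 genes passed, Nrg1 higher and Hbegf lower. Nrg1, which encodes the neuregulin that binds Erbb3 and Erbb4, lay at 7.49, 4.29 and 20.6 CPM in Arid1a KO, against 1.54, 3.42 and 4.13 CPM in WT. The lowest knockout library was barely above the highest WT library (log2 fold change 1.83, SE 0.59, adjusted p = 0.0346). The call ended without knockout replicate 3 (log2 fold change 1.01, adjusted p = 0.312) or without WT replicate 1 or 2 (adjusted p = 0.118 and 0.0880), and in a fit of only the 2 groups compared (0.0634). Hbegf, which encodes heparin-binding EGF-like growth factor, lay at 259, 178 and 65.5 CPM in Arid1a KO, against 371, 501 and 533 CPM in WT. There was no overlap (log2 fold change -1.48, SE 0.51, adjusted p = 0.0462), and the call ended without any 1 of knockout replicates 2 and 3 and WT replicates 1, 2 and 3 (adjusted p = 0.0606 to 0.246), in a fit of only those 2 groups (0.0639) and with RLE size factors in place of TMM (0.0594). All 7 leukocyte markers were higher in Arid1a KO (summed 1736 to 2820 CPM, against 162 to 418 CPM in WT), as were 5 of 6 macrophage, 4 of 6 fibroblast and 4 of 7 mast cell and basophil markers. All 3 parathyroid markers (summed 111 to 512 CPM in Arid1a KO, against 1592 to 5529 CPM in WT), 2 of 4 general epithelial markers (562 to 1817 CPM, against 2792 to 2906 CPM) and 2 of 5 C cell markers were lower. Their part in these results was not tested.

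**Figure D2:**
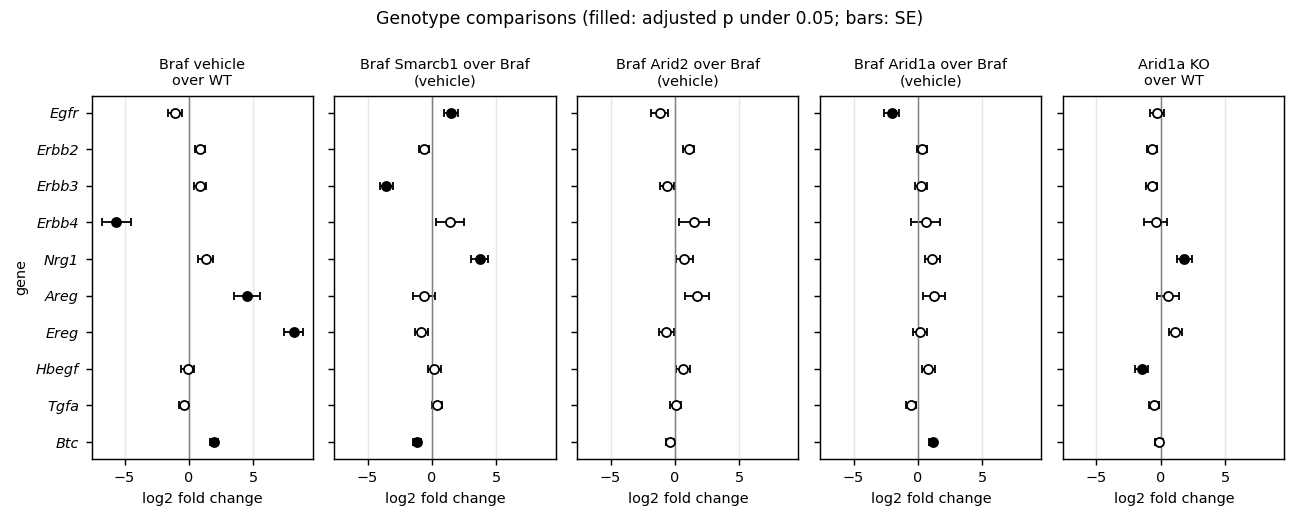
Log2 fold changes of the 10 genes in 5 genotype comparisons, each titled with the group on top of the fold; bars are 1 SE and filled points have an adjusted p under 0.05. Ereg, at 8.11, is farthest from 0 in Braf vehicle over WT, and Erbb3, at -3.56, and Nrg1, at 3.69, are farthest in Braf Smarcb1 KO over Braf.

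Smarcb1 loss on top of mutant Braf was read under vehicle, against mutant Braf alone. By the label texts the preparation may have differed as well, and it cannot then be told apart from Smarcb1 loss. There Nrg1 and Egfr were higher and Erbb3 and Btc were lower in Braf Smarcb1 KO than in Braf, 4 of 10 genes where 28.6% of all genes were called. Nrg1 lay at 73.5, 133 and 83.6 CPM in Braf Smarcb1 KO, against 5.14, 6.94 and 10.4 CPM in Braf. Every knockout library was far above every Braf library (log2 fold change 3.69, SE 0.63, adjusted p = 0.000242). Erbb3, the receptor that binds Nrg1 and has little kinase activity of its own, lay at 4.72, 18.1 and 9.61 CPM in Braf Smarcb1 KO, against 80.99, 209 and 91.1 CPM in Braf. The groups were again far apart (log2 fold change -3.56, SE 0.50, adjusted p = 4.15e-05; -4.15 without knockout replicate 2). Both calls held under each of the 11 alternatives run. Btc lay at 34.4, 26.7 and 31.6 CPM in Braf Smarcb1 KO, against 99.9, 49.7 and 56.5 CPM in Braf, with no overlap. It fell by 1.15 on the log2 scale (SE 0.30, adjusted p = 0.00593), and the call ended without Braf vehicle replicate 2 (log2 fold change -0.69, adjusted p = 0.0942) and in a fit of only the groups compared (0.0619). Egfr lay at 94.2, 72.9 and 37.2 CPM in Braf Smarcb1 KO, against 6.06, 47.6 and 18.8 CPM in Braf. The groups overlapped, and the log2 fold change of 1.49 (SE 0.55, adjusted p = 0.0467) was 2.43 without Braf vehicle replicate 4 (adjusted p = 0.00539), the library with 47.6 CPM. The call ended without Braf vehicle replicate 2 or 5 or knockout replicate 1 or 2 (adjusted p = 0.0939 to 0.161), in a fit of only the groups compared (0.1697) and without the filter on low counts (0.0513).

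Ereg did not pass in this comparison, at 647, 800 and 654 CPM in Braf Smarcb1 KO against 2329, 645 and 767 CPM in Braf (log2 fold change -0.83, adjusted p = 0.235). Areg varied widely among the knockout libraries, at 5.75, 34.6 and 105 CPM, against 97.1, 25.8 and 97.5 CPM in Braf (log2 fold change -0.60, adjusted p = 0.633). Of 4 general epithelial markers 3 were lower in Braf Smarcb1 KO (the cadherin gene Cdh1 and the keratin genes Krt8 and Krt18), and the list summed to 728 to 1864 CPM, against 4320 to 14865 CPM in Braf. Lower too were 5 of 7 thyroid follicular markers (1 was higher), 4 of 7 leukocyte, 5 of 6 macrophage, 3 of 6 fibroblast and 3 of 4 Schwann and nerve markers. Schwann cells and fibroblasts are among the cell types that use neuregulin signalling, and their marker sums were 4.98 to 7.33 CPM and 1265 to 2722 CPM in Braf Smarcb1 KO, against 13.8 to 88.3 CPM and 877 to 21465 CPM in Braf. The part of these markers in the results was not tested.

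Loss of Arid1a or of Arid2 with mutant Braf was read in the same way. For Arid2 the same limit on preparation holds. In Braf Arid1a KO under vehicle, Btc was higher and Egfr lower than in Braf, 2 of 10 genes where 9.56% of all genes were called. Btc lay at 118, 134 and 202 CPM in Braf Arid1a KO, against 99.9, 49.7 and 56.5 CPM in Braf, with no overlap (log2 fold change 1.14, SE 0.29, adjusted p = 0.0176). Its call ended without Braf vehicle replicate 4 or 5 or knockout replicate 3 (adjusted p = 0.0855 to 0.109) and in a fit of only the groups compared (0.101). Egfr lay at 6.25, 5.21 and 6.28 CPM in Braf Arid1a KO, against 6.06, 47.6 and 18.8 CPM in Braf. One Braf library sat within the knockout range (log2 fold change -2.03, SE 0.57, adjusted p = 0.0275), the value was -1.09 without Braf vehicle replicate 4 (adjusted p = 0.233), and the call also ended without any 1 knockout library (adjusted p = 0.0747 to 0.0879) and in a fit of only the groups compared (0.107). Cell type markers moved too. Lower in Braf Arid1a KO were 5 of 6 fibroblast, 4 of 4 Schwann and nerve and 3 of 5 endothelial markers. So were 3 of 7 mast cell and basophil and 1 of 5 C cell markers. Of the thyroid follicular markers 2 of 7 were higher, with 1 of 5 squamous keratinocyte markers. The fibroblast markers summed to 321 to 778 CPM, against 877 to 21465 CPM in Braf. The part of these markers was not tested. In Braf Arid2 KO under vehicle, 0 of the 10 genes passed edgeR's test, where 3.61% of all genes were called. At an unadjusted p under 0.05 there was 1 of 10, Erbb2, against 4185 of 19016 genes, and DESeq2 called 0 of 10 and 2120 genes. Erbb2 lay at 82.5 and 40.0 CPM in Braf Arid2 KO, against 26.6, 28.5 and 32.4 CPM in Braf (log2 fold change 1.07, adjusted p = 0.152). Areg lay at 313 and 178 CPM in Braf Arid2 KO and at 242, 129 and 159 CPM in Braf Arid1a KO, against 97.1, 25.8 and 97.5 CPM in Braf. Neither knockout overlapped Braf, and neither difference passed (log2 fold change 1.74 with adjusted p = 0.275 for Arid2, and 1.27 with adjusted p = 0.380 for Arid1a).

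**Figure D3:**
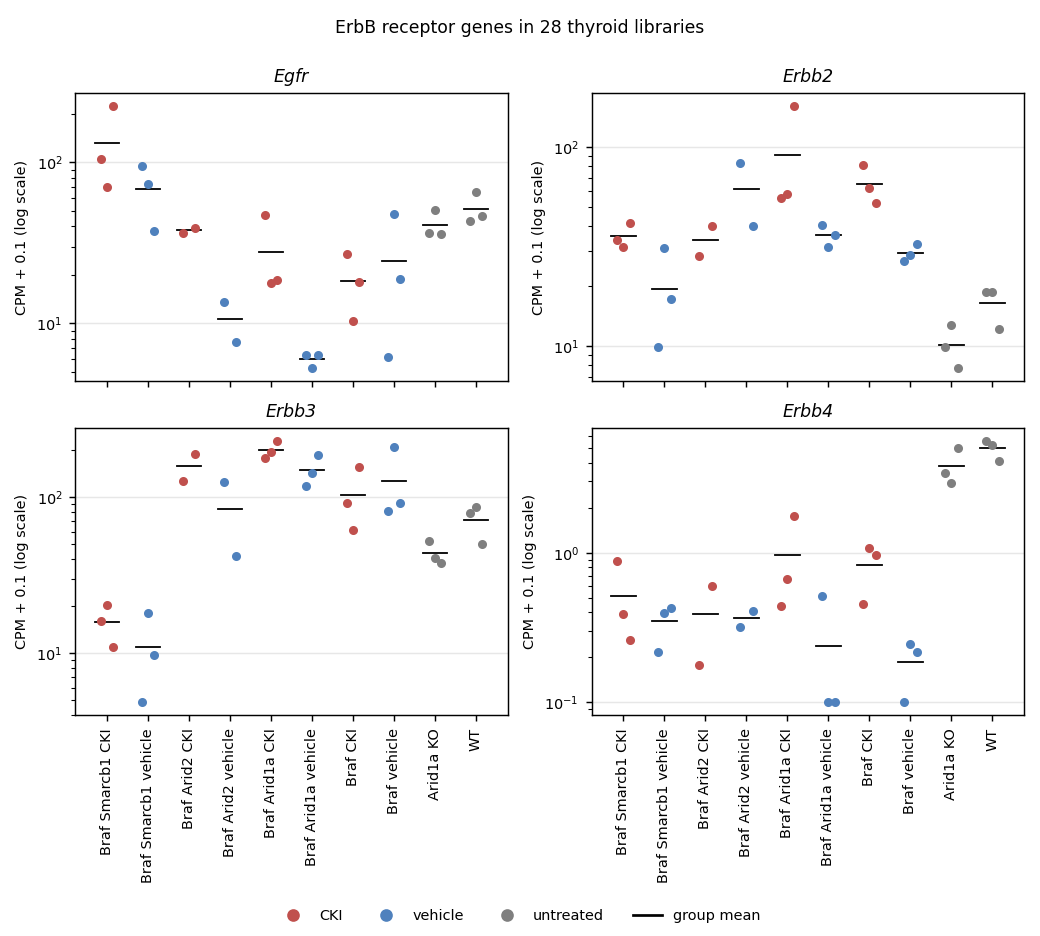
Levels of the 4 receptor genes in each of 28 libraries, by group, on a log scale with 0.1 CPM added and a range of its own in each panel; lines are group means. Erbb3 is at 20.1 CPM or less in Braf Smarcb1 KO and at 37.8 CPM or more elsewhere, and Erbb4 is at 2.81 CPM or more only in the 6 libraries without mutant Braf.

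The MEK inhibitor was compared with vehicle within each Braf genotype and as a mean over the 4 genotypes with equal weight. In the mean, Egfr, Erbb2 and Erbb4 were higher with CKI and Ereg was lower, 4 of 10 genes where 19.6% of all genes were called. Erbb3, Nrg1, Areg, Hbegf, Tgfa and Btc did not pass. Ereg lay at 247, 318 and 119 CPM with CKI in Braf Smarcb1 KO, against 647, 800 and 654 CPM under vehicle. With Arid2 KO it lay at 452 and 403 CPM with CKI, against 950 and 593 CPM under vehicle. The CKI libraries were below every vehicle library in each of these genotypes. In Braf Arid1a KO it lay at 141, 539 and 485 CPM with CKI, against 1139, 1243 and 1795 CPM under vehicle. In Braf it lay at 352, 353 and 465 CPM with CKI, against 2329, 645 and 767 CPM under vehicle. There too no CKI library reached a vehicle library, and each CKI library stayed above the 2.46 to 5.60 CPM of WT. The mean log2 fold change was -1.50 (SE 0.28, adjusted p = 0.000522). Within genotypes it was -1.62 in Braf Smarcb1 KO (adjusted p = 0.0860), -0.85 in Braf Arid2 KO (adjusted p = 0.459), -1.84 in Braf Arid1a KO (adjusted p = 0.0462) and -1.68 in Braf (adjusted p = 0.0388). The fall in Braf Smarcb1 KO passed with DESeq2 (adjusted p = 0.0277). The mean held under each of the 27 alternatives run. The calls within a genotype did not: that in Braf ended without vehicle replicate 2 (log2 fold change -0.79, adjusted p = 0.381) or without any 1 CKI library (adjusted p = 0.0649 to 0.129), and that in Braf Arid1a KO ended without any 1 of its 6 libraries (adjusted p = 0.0526 to 0.158) and with RLE size factors (0.0508). Both also ended in fits of only the groups compared (adjusted p = 0.0826 in Braf and 0.0940 in Braf Arid1a KO).

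The leukocyte and macrophage markers fell with Ereg in the mean over genotypes, 7 of 7 and 6 of 6, and of 7 mast cell and basophil markers 3 were lower and 1 higher. In Braf the leukocyte markers summed to 80.8 to 191 CPM with CKI, against 678 to 1025 CPM under vehicle, and the mast cell and basophil markers to 26.4 to 72.9 CPM, against 376 to 4303 CPM. Cpa3 and Fcer1a, which mark mast cells and basophils, were at 0 in every Braf library with CKI. Thyroid follicular markers moved the other way, 7 of 7 higher in the mean. Their part in the results on Ereg and on the receptors below was not tested.

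Egfr lay at 104, 70.2 and 222 CPM with CKI in Braf Smarcb1 KO, against 94.2, 72.9 and 37.2 CPM under vehicle. In Braf Arid2 KO it lay at 36.4 and 39.1 CPM with CKI, against 13.6 and 7.55 CPM under vehicle. In Braf Arid1a KO it lay at 46.7, 17.8 and 18.4 CPM with CKI, against 6.25, 5.21 and 6.28 CPM under vehicle. The groups were apart in the Arid2 and Arid1a knockouts and overlapped with Smarcb1 loss. In Braf alone Egfr lay at 26.7, 10.2 and 17.9 CPM with CKI, against 6.06, 47.6 and 18.8 CPM under vehicle, with overlap. Its mean log2 fold change was 1.15 (SE 0.29, adjusted p = 0.00728) and held under each of the 27 alternatives run. By genotype it was 0.96 in Braf Smarcb1 KO (adjusted p = 0.376), 1.84 in Braf Arid2 KO (adjusted p = 0.133), 2.22 in Braf Arid1a KO (SE 0.57, adjusted p = 0.0291) and -0.40 in Braf (adjusted p = 0.675). The rise in Braf Arid2 KO passed in a fit of only the groups compared (adjusted p = 0.0312). The value in Braf was 0.53 without vehicle replicate 4, the library with 47.6 CPM. That library also held the highest fibroblast marker sum of its group (21465 CPM, against 877 CPM in the lowest). So did the library with 222 CPM of Egfr in Braf Smarcb1 KO with CKI (13766 CPM, against 1480 CPM in the lowest). Other groups differed: WT held 722 to 1417 CPM of these markers, with Egfr at 43.3 to 65.1 CPM. Arid1a KO without mutant Braf held 9773 to 13228 CPM, with Egfr at 35.7 to 50.4 CPM. The part of fibroblasts in the level of Egfr was not tested. The call in Braf Arid1a KO ended without CKI replicate 2 (log2 fold change 1.62, adjusted p = 0.138) or without any 1 vehicle library (adjusted p = 0.0787 to 0.101).

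Erbb2 lay at 34.1, 31.3 and 41.2 CPM with CKI in Braf Smarcb1 KO, against 9.79, 30.9 and 17.1 CPM under vehicle. In Braf Arid1a KO it lay at 55.3, 57.7 and 160 CPM with CKI, against 40.4, 31.4 and 36.1 CPM under vehicle, and in Braf at 81.1, 62.4 and 52.0 CPM, against 26.6, 28.5 and 32.4 CPM. CKI and vehicle libraries did not overlap in these 3 genotypes. Braf Arid2 KO ran the other way, with 28.03 and 40.1 CPM with CKI against 82.5 and 40.0 CPM under vehicle. The mean log2 fold change was 0.63 (SE 0.21, adjusted p = 0.0359). Within genotypes it was 0.88 in Braf Smarcb1 KO (adjusted p = 0.244), -0.85 in Braf Arid2 KO (adjusted p = 0.325), 1.34 in Braf Arid1a KO (adjusted p = 0.0564) and 1.16 in Braf (adjusted p = 0.0567). DESeq2 called Erbb2 in Braf Arid1a KO (adjusted p = 0.0140) and in Braf (0.0329). A fit of only the groups compared also called it in Braf (0.0361). The mean call was sensitive to single libraries. It ended without any 1 of 12 libraries, which were Braf CKI 1, Braf vehicle 2 and 4, Braf Arid1a KO CKI 5 and vehicle 2 and 3, Braf Arid2 KO CKI 4 and vehicle 4, and Braf Smarcb1 KO CKI 1 and 4 and vehicle 1 and 3 (adjusted p = 0.0507 to 0.129).

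Erbb4 stayed low with CKI, at 0.0787 to 1.67 CPM over the 11 CKI libraries, against 0 to 0.412 CPM over the 11 vehicle libraries. Its mean log2 fold change was 1.59 (SE 0.53, adjusted p = 0.0379), and 2.85 without vehicle replicate 1 of Braf Arid1a KO, the only one of that group with counts. The call ended without any 1 of 11 libraries, which were Braf CKI 4 and 5 and vehicle 2, Braf Arid1a KO CKI 5 and vehicle 2 and 3, Braf Arid2 KO CKI 4 and vehicle 2 and 4, and Braf Smarcb1 KO CKI 1 and vehicle 1 (adjusted p = 0.0503 to 0.268), and in a fit of only the groups compared (0.0757). Each CKI level of Erbb4 was under the 4.0005 to 5.48 CPM of WT. Erbb3 did not pass in any genotype or in the mean (mean log2 fold change 0.39, adjusted p = 0.278). It lay at 91.1, 61.6 and 156 CPM with CKI in Braf, against 80.99, 209 and 91.1 CPM under vehicle, with overlap (log2 fold change -0.30, adjusted p = 0.707). In Braf Arid2 KO Erbb3 lay at 127 and 188 CPM with CKI, against 125 and 41.9 CPM under vehicle. These groups were barely apart (log2 fold change 0.92, adjusted p = 0.355). Its log2 fold change was 0.42 in Braf Arid1a KO (adjusted p = 0.639) and 0.54 in Braf Smarcb1 KO (adjusted p = 0.585), both with overlap. Nrg1 did not pass either, at 13.4, 13.1 and 14.3 CPM with CKI in Braf, against 5.14, 6.94 and 10.4 CPM under vehicle. Its groups did not overlap (log2 fold change 0.86, adjusted p = 0.342). In Braf Arid2 KO Nrg1 ran the other way without overlap, at 3.58 and 7.26 CPM with CKI against 9.22 and 15.7 CPM under vehicle (log2 fold change -1.20, adjusted p = 0.342). Its log2 fold change was -0.90 in Braf Arid1a KO (adjusted p = 0.387), 0.41 in Braf Smarcb1 KO (adjusted p = 0.758) and -0.21 in the mean (adjusted p = 0.698).

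**Figure D4:**
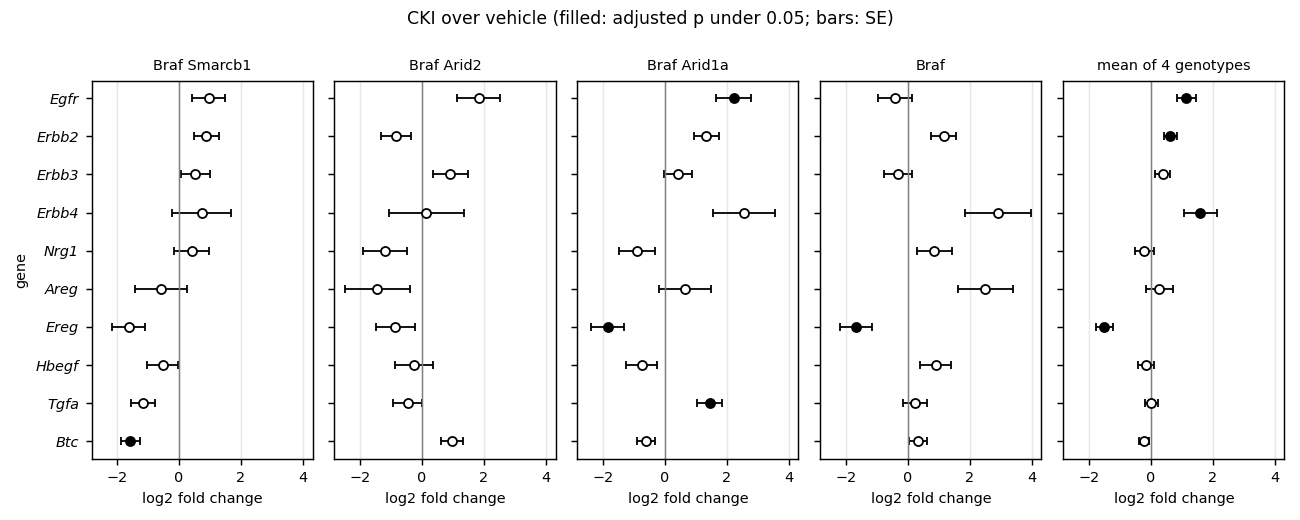
Log2 fold changes of the 10 genes with CKI over vehicle in 4 Braf genotypes and in their mean; bars are 1 SE and filled points have an adjusted p under 0.05. Ereg is below 0 in each panel, from -0.85 to -1.84 within genotypes, whereas Areg runs from -1.44 in Braf Arid2 KO to 2.50 in Braf.

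Counts within a genotype were small. In Braf 1 of 10 genes passed (Ereg, lower; 13.0% of all genes called), in Braf Arid1a KO 3 passed (Egfr and Tgfa higher, Ereg lower; 4.51%), and in Braf Smarcb1 KO 1 passed (Btc, lower; 3.85%). In Braf Arid2 KO edgeR and DESeq2 each called 0 (3.37% of all genes by edgeR), and 2 of 10, Egfr and Btc, had an unadjusted p under 0.05, as had 3965 of 19016 genes. Btc lay at 11.3, 13.3 and 6.80 CPM with CKI in Braf Smarcb1 KO, against 34.4, 26.7 and 31.6 CPM under vehicle. All 3 CKI libraries were below the vehicle libraries (log2 fold change -1.56, SE 0.30, adjusted p = 0.00518), and the call held without any 1 of the 6 libraries and ended in a fit of only the groups compared (adjusted p = 0.0908). In Braf Arid2 KO it lay at 115 and 89.9 CPM with CKI, against 48.6 and 55.8 CPM under vehicle (log2 fold change 0.97, adjusted p = 0.129). Tgfa, which encodes transforming growth factor alpha, lay at 25.5, 17.3 and 23.6 CPM with CKI in Braf Arid1a KO, against 7.52, 9.69 and 7.25 CPM under vehicle. There was no overlap (log2 fold change 1.44, SE 0.39, adjusted p = 0.0368). The call ended without CKI replicate 2 or 5 or any 1 vehicle library (adjusted p = 0.0708 to 0.138). In Braf Smarcb1 KO Tgfa lay at 5.43, 4.22 and 10.8 CPM with CKI, against 23.7, 13.5 and 8.10 CPM under vehicle, with overlap (log2 fold change -1.15, adjusted p = 0.101). DESeq2 called that fall (adjusted p = 0.0275). Hbegf lay at 927, 756 and 763 CPM with CKI in Braf, against 537, 199.9 and 573 CPM under vehicle. The groups did not overlap, and the difference did not pass (log2 fold change 0.90, adjusted p = 0.247). Its groups overlapped in the other genotypes, with log2 fold changes of -0.52 in Braf Smarcb1 KO (adjusted p = 0.637), -0.26 in Braf Arid2 KO (adjusted p = 0.866) and -0.74 in Braf Arid1a KO (adjusted p = 0.421), and the mean was -0.16 (adjusted p = 0.750). Areg lay at 336, 706 and 201 CPM with CKI in Braf, against 97.1, 25.8 and 97.5 CPM under vehicle. Each CKI library was above each vehicle library, and the difference missed the threshold (log2 fold change 2.50, SE 0.89, adjusted p = 0.0649). It passed with DESeq2 (adjusted p = 0.0194) and in a fit of only the groups compared (0.0496). Areg in Braf Arid2 KO lay at 79.7 and 101 CPM with CKI, against 313 and 178 CPM under vehicle, the other way round (log2 fold change -1.44, adjusted p = 0.449). That fall passed in a fit of only the groups compared (adjusted p = 0.0472).

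The difference between drug responses was tested for each knockout against Braf, with the same Braf libraries in all 3. For Arid1a loss, 0 of 10 members and 0% of all genes passed edgeR's test. At an unadjusted p under 0.05 there were 5 of 10 members and 2018 genes, and DESeq2 called 1 and 172. The response of Egfr differed by 2.63 on the log2 scale (adjusted p = 0.263), with 2.22 in Braf Arid1a KO and -0.40 in Braf. It was the member that DESeq2 called (adjusted p = 0.0491). For Smarcb1 loss, 0 of 10 members passed edgeR's test (0.305% of all genes). At an unadjusted p under 0.05 there were 3 of 10 members and 2194 genes, and DESeq2 called 1 and 268. The response of Btc differed by -1.88 (adjusted p = 0.0510), with -1.56 in Braf Smarcb1 KO and 0.32 in Braf. DESeq2 called it (adjusted p = 0.00668), as did the fit without Braf vehicle replicate 2 (0.0219). The response of Tgfa differed by -1.39 (adjusted p = 0.344). For Arid2 loss, 1 of 10 passed (8.66% of all genes). The response of Erbb2 differed by -2.01 (SE 0.63, adjusted p = 0.0487; -0.85 in Braf Arid2 KO and 1.16 in Braf), and the call ended without any 1 of Braf CKI 1 and 4, Braf vehicle 2, 4 and 5, Braf Arid2 KO CKI 3 and 4 and Braf Arid2 KO vehicle 2 (adjusted p = 0.0570 to 0.313). The last gave -1.40, and the call also ended with RLE size factors (adjusted p = 0.0526) and without the filter on low counts (adjusted p = 0.0608). Areg differed by -3.94 (adjusted p = 0.0758) and Egfr by 2.24 (adjusted p = 0.110). DESeq2 called both (adjusted p = 0.0222 for Areg and 0.0462 for Egfr), and a fit of only the groups compared called Areg (0.0248).

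A list of 28 other genes of the pathway was read with the members, and 26 were tested (Nrg2 and Nrg3 were not). In the mean over genotypes 6 of 26 were higher with CKI and 4 lower, where 19.6% of all genes were called (median log2 fold change -0.06, against 0.01 over all genes). The rises included 3 of 7 genes of inhibition and turnover, namely Lrig3 and the ErbB inhibitors Errfi1 (Mig6) and Lrig1. Whether Lrig3 inhibits these receptors is not settled here. Lrig1, which speeds the degradation of ErbB receptors, lay at 8.81, 5.81 and 5.12 CPM with CKI in Braf Smarcb1 KO, against 3.91, 3.50 and 2.90 CPM under vehicle. In Braf Arid2 KO it lay at 8.35 and 14.4 CPM with CKI, against 4.23 and 1.77 CPM under vehicle. The groups were apart in both. In Braf Arid1a KO it lay at 9.64, 25.2 and 22.1 CPM with CKI, against 5.20, 7.29 and 9.25 CPM under vehicle, and in Braf at 9.02, 11.7 and 10.9 CPM, against 2.39, 7.60 and 4.17 CPM. Again every CKI library was above its vehicle libraries, and the mean log2 fold change was 1.35 (SE 0.23, adjusted p = 0.000184). Lrig1 was lower in Braf vehicle than in WT, where it lay at 30.7, 25.4 and 20.003 CPM (log2 fold change -2.42, adjusted p = 0.000437). Lrig3, a relative of Lrig1, was also higher with CKI (mean log2 fold change 1.43, adjusted p = 0.0132) and lower in Braf vehicle than in WT (-2.81, adjusted p = 0.0115). Errfi1, which binds and blocks the Egfr kinase, lay at 1046, 1034 and 464 CPM with CKI in Braf, against 187, 165 and 189 CPM under vehicle (log2 fold change 2.23, adjusted p = 0.0102). Its mean over genotypes was 0.76 (adjusted p = 0.0463). That call ended without any 1 of 18 of the 22 libraries, all but Braf CKI 5, Braf Arid1a KO CKI 2 and 4 and vehicle 1 (adjusted p = 0.0563 to 0.128), in a fit of only the groups compared (0.0552) and with RLE size factors (0.0539), and the value was 0.41 without Braf Arid1a KO CKI replicate 5. Its response in Braf Arid2 KO differed from that in Braf by -2.77 (adjusted p = 0.0343), at 264 and 356 CPM with CKI against 353 and 545 CPM under vehicle, and 8 of the 10 libraries ended that call when left out, all but Braf CKI 5 and vehicle 5 (adjusted p = 0.0511 to 0.207).

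**Figure D5:**
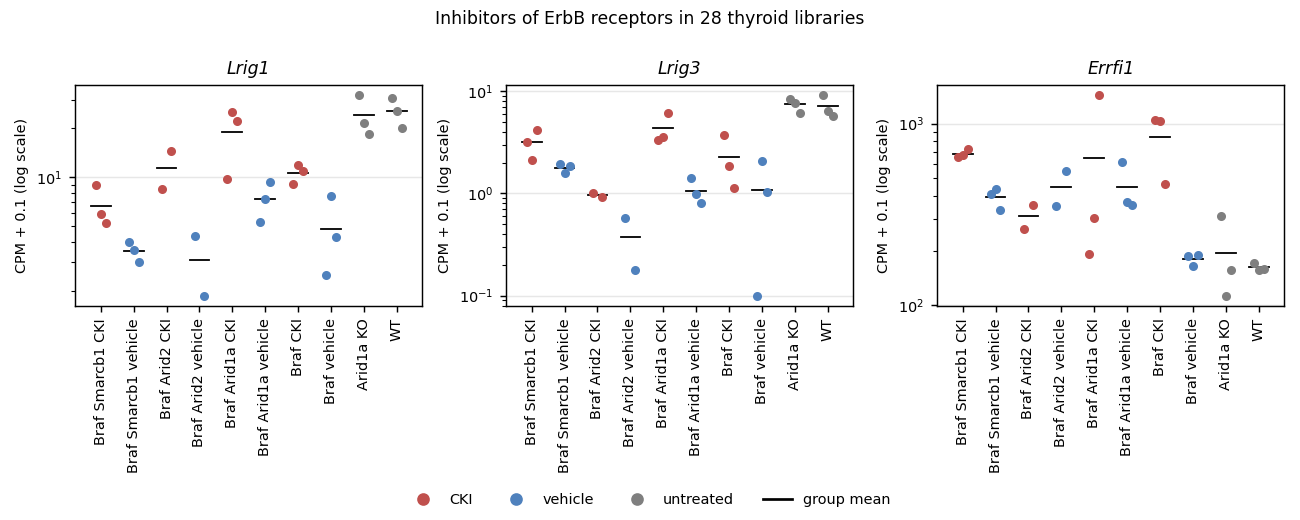
Levels of Lrig1, Lrig3 and Errfi1 in each of 28 libraries, by group, with group means as lines. The scale is log, with 0.1 CPM added and a range of its own in each panel. The title follows the list of inhibition and turnover that held these genes, and whether Lrig3 inhibits is not settled here. In each Braf genotype all CKI libraries of Lrig1 are above its vehicle libraries, and Errfi1 with CKI in Braf Arid1a KO spreads from 191 to 1437 CPM.

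The other rises with CKI were in the adaptor gene Gab1 (mean log2 fold change 0.83, adjusted p = 0.00731) and in the PI3K branch in Akt2 (0.84, adjusted p = 0.00366) and Pik3r1, a regulatory subunit (0.48, adjusted p = 0.0456). The falls were in Pik3ca, the catalytic subunit p110 alpha of PI3K (-1.02, adjusted p = 4.61e-06), the adaptor gene Shc1 (-0.60, adjusted p = 0.0293), the ligand gene Nrg4 (-1.40, adjusted p = 0.0293) and Adam17 (-0.45, adjusted p = 0.0366), the protease that releases Areg, Ereg, Hbegf and Tgfa from the membrane. The calls of Pik3ca, Akt2, Gab1 and Lrig1 held without any 1 of the 22 libraries. That of Lrig3 ended without Braf Arid2 KO vehicle 4 (adjusted p = 0.0539), that of Nrg4 without any 1 of Braf vehicle 4, Braf Arid2 KO CKI 3 and 4 and vehicle 4 and Braf Smarcb1 KO vehicle 3 (adjusted p = 0.0512 to 0.0811), and that of Shc1 without any 1 of Braf CKI 4, Braf Arid2 KO CKI 3 and 4 and vehicle 2 and Braf Smarcb1 KO vehicle 1 (adjusted p = 0.0509 to 0.0740). For Adam17 the call ended without any 1 of 11 libraries, which were Braf CKI 4 and vehicle 4, Braf Arid1a KO CKI 4 and 5 and vehicle 3, Braf Arid2 KO CKI 3 and 4 and vehicle 2, and Braf Smarcb1 KO CKI 1 and 2 and vehicle 1 (adjusted p = 0.0535 to 0.123), and without the filter on low counts (0.0661). For Pik3r1 it ended without any 1 of 12 libraries, which were Braf CKI 1 and 5 and vehicle 2, Braf Arid1a KO CKI 2 and 5 and vehicle 1 and 3, Braf Arid2 KO CKI 4 and vehicle 4, and Braf Smarcb1 KO CKI 1 and 2 and vehicle 1 (adjusted p = 0.0616 to 0.173), without the filter (0.0678) and in a fit of only the groups compared (0.0506). Pik3ca lay at 14.8, 13.1 and 17.1 CPM with CKI in Braf, against 34.5, 30.3 and 34.4 CPM under vehicle, with no overlap. In Braf vehicle against WT 3 of 26 were higher and 4 lower, where 20.0% of all genes were called (median log2 fold change 0.25, against -0.03 over all genes). The protease gene Adam10 was higher (log2 fold change 1.03, adjusted p = 0.00904), with Grb7, an adaptor that binds Erbb2 (1.40, adjusted p = 0.0440), and Pik3ca (0.86, adjusted p = 0.0103). Sos1, the Ras exchange factor (-1.40, adjusted p = 0.00865), and Akt2 (-1.31, adjusted p = 0.0148) were lower, beside Lrig1 and Lrig3; Adam17 (0.24, adjusted p = 0.597) and Errfi1 (0.16, adjusted p = 0.859) did not pass. The call of Grb7 ended without any 1 of the 6 libraries (adjusted p = 0.0563 to 0.154), that of Akt2 without Braf vehicle replicate 4 or WT replicate 2 (adjusted p = 0.0522 and 0.0820), and that of Lrig3 in a fit of only the groups compared (adjusted p = 0.0971). In Braf Smarcb1 KO against Braf under vehicle, 1 of 26 was higher and 2 lower, where 28.6% of all genes were called. Grb7 moved with Erbb3 there, at 3.80, 13.9 and 13.8 CPM in Braf Smarcb1 KO against 106, 107 and 123 CPM in Braf (log2 fold change -3.42, adjusted p = 8.72e-05). Pik3cb, the p110 beta subunit, was higher (2.73, adjusted p = 0.000397) and Pik3r1 lower (-1.20, adjusted p = 0.00758, and 0.0836 in a fit of only the groups compared). In Arid1a KO against WT 3 of 26 were higher and 6 lower, where 18.6% of all genes were called.

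Genes whose pattern over the 28 libraries was most like that of a member were found by Pearson's r of log2(CPM + 1), among 10551 genes with a mean of at least 5 CPM. The libraries share groups, so r describes the 10 groups as much as libraries, and it has no p. For Erbb3 these were Plxnb1 (0.953), Inadl (0.948) and Grhl2 (0.947). For Erbb2 they were Ltbp3 (0.906), Grina (0.902) and Ptk7 (0.902). For Areg they were Fads3 (0.910), Scarb2 (0.908) and Dusp4 (0.895), the last a phosphatase gene of the MAPK pathway. For Egfr they were Spin4 (0.878), Dtx3l (0.871) and Armcx2 (0.857). Among the members, the pair of Erbb2 and Areg had the highest r, 0.820, and Ereg and Erbb4 the lowest, -0.910. Ereg and Erbb4 are split by mutant Braf, and across the 22 libraries with mutant Braf Erbb4 never passed 1.67 CPM.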

How the data were processed

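The values are whole-number counts of reads per gene, not normalized, which the authors deposited as 1 table for the series. The build mm9, HTSeq 0.6.1, STAR 2.4 and DESeq2 were named, with no role given, per the submitters' processing notes; libraries were made with a TruSeq RNA kit, per the labels' protocols. Of 30 labelled samples 28 were analysed; replicate 2 of Braf Arid2 KO with CKI and replicate 1 under vehicle were not analysed here. Groups and replicate numbers came from the titles. No pair of libraries of a group looked like 1 library deposited again (26 pairs, chi-square divided by its degrees of freedom 84.5 to 393); this does not show that they come from separate animals.

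Genes were filtered with filterByExpr, scaled by TMM and fitted in 1 quasi-likelihood model of 28 libraries with a term per group (edgeR 4.0.16, R 4.3.3), from which 13 comparisons were taken. Benjamini-Hochberg adjustment ran over all 19016 genes, with a threshold of 0.05, and the SE is the log2 fold change over the root of the F statistic. The model was also run on counts simulated from the gene means and spreads of these data, as a check of the code. Such counts cannot show how the model behaves on these libraries. CPM uses TMM library sizes. Members, lists and tests were chosen with earlier results of these data known. Named beside the members are pathway genes past the threshold in the mean drug comparison or in Braf against WT, Errfi1, Lrig1 and Adam17, targeted genes, abundant markers and, for 4 members, the 3 genes most like each; Grb7, Pik3cb and Pik3r1 in Braf Smarcb1 KO, single marker genes beyond these and Egf were named after their values were seen. Alternatives were RLE size factors, no filter, the replicate number as a block, only the groups compared, DESeq2 1.42.0 and leaving out each library. Depth limits genes near 0 such as Erbb4, where a few counts set the level; counting error is part of the fitted spread.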

Additional observations from a re-analysis of the deposited data

Results flagged for a closer look

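The response of Erbb2 to CKI differed between Braf Arid2 KO and Braf by a test of the difference itself, with a log2 difference of -2.01 (SE 0.63, adjusted p = 0.0487 by edgeR's quasi-likelihood test). Erbb2 was at 28.03 and 40.1 CPM with CKI in Braf Arid2 KO, against 82.5 and 40.0 CPM under vehicle, and at 81.1, 62.4 and 52.0 CPM with CKI in Braf, against 26.6, 28.5 and 32.4 CPM under vehicle. The call held under 4 of 15 alternatives, where adjusted p-values ran from 0.0195 to 0.313. The response of Errfi1, the gene of an Egfr inhibitor, also differed between Braf Arid2 KO and Braf by that test, with a log2 difference of -2.77 (adjusted p = 0.0343), and leaving out 1 of 8 of the 10 libraries ended the call.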

How the results depend on the processing

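For 86 single-gene fold changes, 1235 values were recomputed under alternatives: 1027 kept direction and side of the threshold, 181 were no longer past it, 20 were newly past it and 7 turned direction, none of the 7 past it. Leaving out 1 library at a time gave log2 fold changes of -1.19 to 0.084 for Ereg in Braf Smarcb1 KO against Braf, above 0 without Braf vehicle replicate 2, of -0.79 to 0.53 for Egfr with CKI in Braf, above 0 without Braf vehicle replicate 4, of -0.026 to 0.72 for Nrg1 with CKI in Braf Smarcb1 KO, below 0 without CKI replicate 4, of -0.51 to 0.023 for Hbegf with CKI in Braf Arid2 KO, above 0 without vehicle replicate 2, and of -1.35 to 4.40 for Egf in Arid1a KO against WT.

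Fits of only the groups compared called 1367 genes with CKI in Braf (2466 in the reported fit), 527 in Braf Arid1a KO (858), 1651 in Braf Arid2 KO (640) and 2 in Braf Smarcb1 KO (732). They called 829 genes in Braf Arid1a KO against Braf (1818), 1 in Braf Arid2 KO against Braf (686), 2335 in Braf Smarcb1 KO against Braf (5433), 2333 in Arid1a KO against WT (3538) and 5 for the response difference with Smarcb1 loss (58). Of the 10 members they called 2 with CKI in Braf (1), 2 in Braf Arid2 KO (0), 0 in Braf Smarcb1 KO (1), 0 in Braf Arid1a KO against Braf (2), 2 in Braf Smarcb1 KO against Braf (4), 0 in Arid1a KO against WT (2), 3 in the mean of 4 genotypes (4) and 2 for the response difference with Arid2 loss (1). DESeq2 called 3917, 1854, 1806 and 1621 genes with CKI in Braf, Braf Arid1a KO, Braf Arid2 KO and Braf Smarcb1 KO, 2910 and 2120 in Braf Arid1a KO and Braf Arid2 KO against Braf, and 172, 2949 and 268 for the response differences of Arid1a (0), Arid2 (1647) and Smarcb1 loss. Of the members it called 4, 5 and 3 with CKI in Braf, Braf Arid1a KO (3) and Braf Smarcb1 KO, and 1, 3 and 1 for the response differences. RLE size factors called 1 member in Arid1a KO against WT and 0 for the response difference with Arid2 loss. Without the filter on low counts, 1 gene was called for the response difference with Arid1a loss, 0 members for that with Arid2 loss and 3 in Braf Smarcb1 KO against Braf. The cause was not tested.

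Whether shared replicate numbers mark pairs was not settled. Over the 3 numbers shared by Arid1a KO and WT, r of deviations was 0.071, 0.241 and 0.056. Replicates 1 and 2 correlated best with their own number, and replicate 3 did not. For CKI and vehicle in Braf, r was -0.535 for replicate 4 and -0.183 for replicate 5, and neither correlated best with its own number. Deviations within a group sum to 0, so r in groups this small cannot exclude pairs. With the replicate number as a block, 177 genes were called with CKI in Braf Arid1a KO, 339 in Braf Smarcb1 KO, 1095 in Braf Arid1a KO against Braf and 31 for the response difference with Smarcb1 loss. The block left 0 members called with CKI in Braf, 0 in Braf Arid1a KO, 2 in the mean of 4 genotypes (4, without Erbb2 at an adjusted p of 0.0775 and Erbb4 at 0.159), 0 in Braf Arid1a KO against Braf, 0 for the response difference with Arid2 loss and 3 in Braf Smarcb1 KO against Braf (4), where Egfr lost its call (adjusted p = 0.118). It turned Errfi1 in Braf against WT to -0.076 and Hbegf with CKI in Braf Arid2 KO to 0.036, neither past the threshold.

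Leaving out each library in turn gave 726 to 2453 genes with CKI in Braf, 256 to 756 in Braf Arid1a KO, 65 to 349 in Braf Arid2 KO and 233 to 923 in Braf Smarcb1 KO. It gave 737 to 1637 in Braf Arid1a KO against Braf, 38 to 874 in Braf Arid2 KO against Braf, 2359 to 3809 in Braf vehicle against WT (3795) and 1115 to 4854 in Arid1a KO against WT. For the response differences it gave 0 to 275 (Arid1a), 0 to 2050 (Arid2) and 19 to 77 (Smarcb1). The members called ranged from 0 to 1 with CKI in Braf, 0 to 3 in Braf Arid1a KO, 1 to 2 in Braf Smarcb1 KO, 2 to 4 in the mean, 0 to 2 in Braf Arid1a KO against Braf, 2 to 4 in Braf Smarcb1 KO against Braf, 4 to 5 in Braf vehicle against WT (4), 0 to 2 in Arid1a KO against WT and 0 to 1 for the response differences with Arid2 and Smarcb1 loss. Fits that left 1 library in a Braf Arid2 KO group took its spread from the other groups.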

Other observations

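Egf, the founding ligand of Egfr, was at 3.41, 423 and 4.52 CPM in Arid1a KO, against 8.55, 15.99 and 6.69 CPM in WT. It was called higher in Arid1a KO (log2 fold change 3.79, adjusted p = 0.0249 by edgeR's quasi-likelihood test), and was -1.35 (adjusted p = 0.181) without knockout replicate 2. The call also ended without any 1 WT library (adjusted p = 0.0660 to 0.0893) and in a fit of only the groups compared (adjusted p = 0.117); 1 of 3 knockout libraries was above the WT libraries and the other 2 were below them. In mutant Braf thyroids Egf ran from 0.365 to 6.16 CPM. Epgn, the neighbour of Ereg on chromosome 5, was at 0 to 0.758 CPM in all 28 libraries, including those where Ereg passed 1000 CPM.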
